A study of Mus musculus with 2 samples.

Results

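Mitosis and spindle genes were followed in sorted mouse regulatory T (Treg) cells, CD4 T cells that restrain immune responses. They encode the cyclins and kinases that start mitosis, the motors and fibres of the spindle, and the proteins that hold chromosomes to it and pull the daughter cells apart. The genes were chosen by name, as gene spots whose gene name on the array stood in a list of 44 names. Of these, 43 had probes, with 62 probes in 71 spots, out of 30175 gene names, 39348 probes and 43020 gene spots on the array. The name without a probe was Cdc2a, an older name of Cdk1, which was present.

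The study compared 1 library labelled Nr4a-deficient, from mice called Nr4a-TKO in the protocol, with 1 library labelled wild-type, both from Treg cells of mice 5 weeks old. Nr4a1, Nr4a2 and Nr4a3 are nuclear receptor genes that T cells switch on when their antigen receptor is engaged. RNA of each library (600 ng) was labelled with the dye Cy3 and hybridised to 1 single-colour array. The part of each gene deleted, the way the deletion was made, the strain, the tissue, the sort markers and the number of mice pooled are not given in the sources used here. With 1 array a group there was no test, so no p-value is given, and each difference describes these 2 libraries.

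Signals are in intensity units of the scanner software. Levels are log2 signals relative to the 75th percentile of the array, 1762 units for the library labelled Nr4a-deficient and 2047 for wild-type. A difference is the level in the library labelled Nr4a-deficient less that in the wild-type library, in log2. A gene is given by its brightest probe among those the software called well above background on at least 1 array, which held for 18556 genes. Levels of different genes are not compared, since probes differ in binding.

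The probes of the targeted genes did not bear out the label in 2 of 3 cases, and Nr4a3 was too dim to check it. Nr4a1 had 80407 units in the library labelled Nr4a-deficient, against 51441 in the wild-type library (difference 0.86), and Nr4a2 had 3134 against 1850 (0.98). The 10 spots of Nr4a3 averaged 23.7 against 72.0 units, and neither array measured them well above background. A probe outside the deleted part checks nothing, and each direction below rests on the label. Of the Treg markers, all 7 were well above background on both arrays, Foxp3 only just (74.5 units in the library labelled Nr4a-deficient, against 85.4 in the wild-type library).

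Genes of mitosis are switched on together, in the late part of the cell cycle. In resting cells their promoters are held silent by a repressor complex built on MuvB proteins, and in dividing cells MuvB binds them with the activators B-Myb (Mybl2) and FoxM1 instead. Many of these promoters carry a short element called the CHR, close to the start of the gene, and CCAAT boxes, which bind the factor NF-Y. High levels of these transcripts are a usual sign of dividing cells, and a share of Treg cells divides in the body at any time.

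The mitosis and spindle genes were lower in the library labelled Nr4a-deficient by a small and similar amount. Of the 43 genes, 41 had a difference below 0, where 49.4% of all detected genes did. Their median difference was -0.319, and the median of all detected genes was 0.003. The middle 50% of the mitosis genes lay between -0.42 and -0.25, a width of 0.17, against a width of 0.42 for all detected genes. These widths are not matched for level, and dim probes are noisier. Levels under -3 were found for 4622 of the 18556 detected genes and for 5 of the 43. In 37 of the 43 the difference lay between -0.5 and -0.1, where 25.6% of all detected genes lay. The lower limit used for counts was a log2 difference of 0.32. Past it on the lower side were 21 of the 43 (48.8%), against 15.5% of all detected genes, and past it on the higher side none, against 17.0%. Just inside the limit lay Ccnb1 (-0.342) and just outside it Ndc80 (-0.319). With genes near background counted at their bounds, none was 2-fold lower or 2-fold higher, against 4.94% and 4.70% of all detected genes. Cenpf, known only by a bound, had a measured difference of -1.18, past 2-fold. In bulk RNA, fewer cells in mitosis and less mitotic RNA per cell cannot be told apart.

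The unscaled signals were lower too, as they were for most genes. The signal was lower in the library labelled Nr4a-deficient for all 43 genes and for 73.8% of all detected genes, and the wild-type signal was 1.45 times as high at the median gene. The 75th percentile of the array was 1.16 times as high in the wild-type library. Added control RNAs (8 viral E1A sequences with 32 spots each) were 0.36 ± 0.057 (SD, n = 8 RNAs) higher, once scaled, in the library labelled Nr4a-deficient. On the scale of these spike-ins, the median of the 43 genes was -0.68 and that of all detected genes -0.36. A change of scale moves both medians by the same amount. The gap between them, -0.32, is thus the same under both scales by construction.

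**Figure D1:**
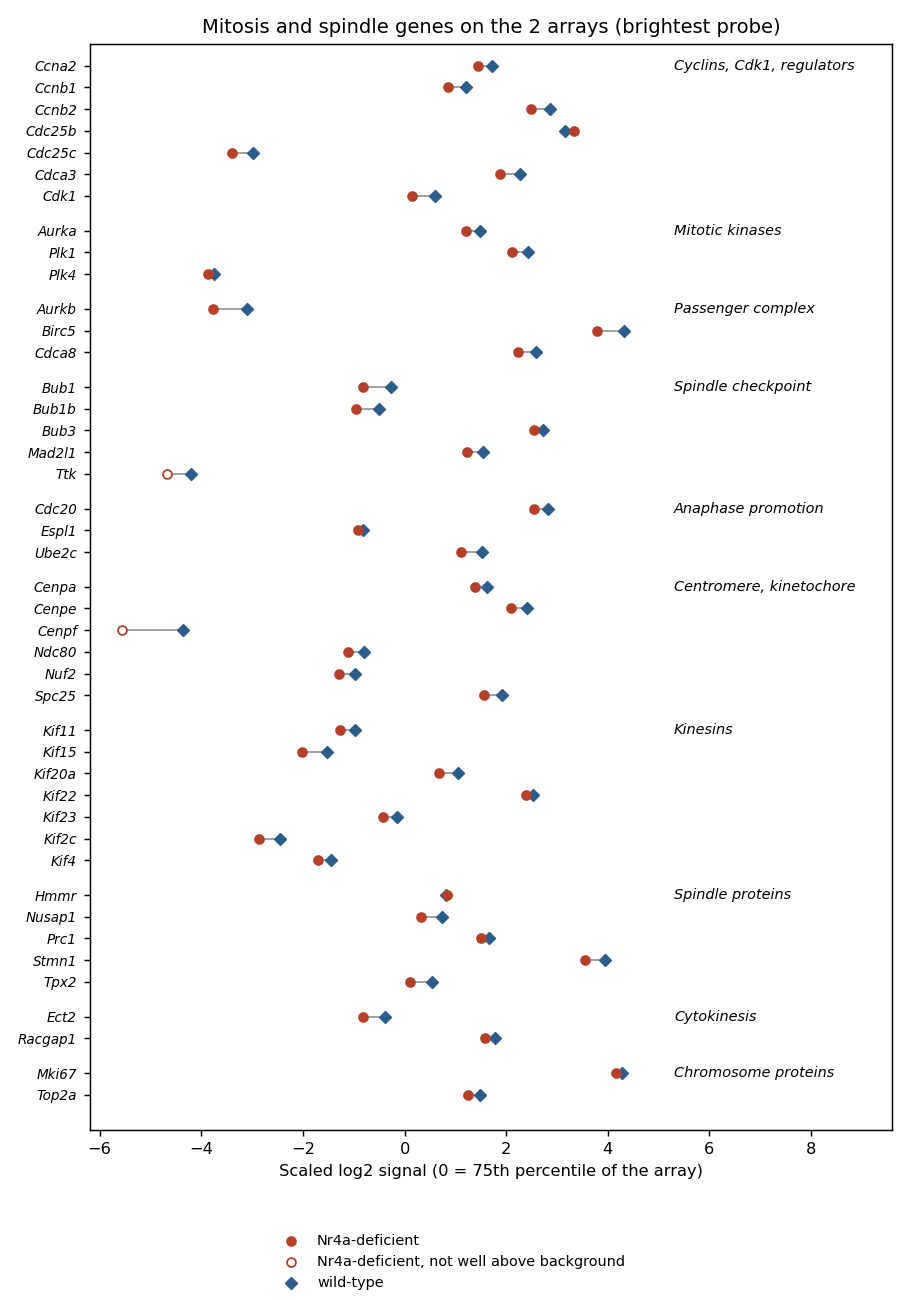
Scaled log2 signal (horizontal axis, 0 is the 75th percentile of the array) of the brightest probe of each of the 43 genes, grouped by role, in the library labelled Nr4a-deficient (circles) and the wild-type library (diamonds), 1 array each. Open circles mark Ttk and Cenpf, not well above background in the library labelled Nr4a-deficient. Circles lie left of diamonds for every gene except Cdc25b and Hmmr.

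The promoters show the elements that these genes share. RefSeq windows of 300 bases (build GRCm38.p6, 250 before the start of the gene and 50 after it) were found for 37 of the 43 genes. The CHR (TTTGAA, on either strand) was in a window of 28 of the 37 (75.7%), and in 20.2% of all 27025 genes of the table. CCAAT (on either strand) was in 29 of the 37 (78.4%), against 41.1% of all genes. Both were present in 25 (67.6%), against 7.97% of all genes. In 28 of the 31 windows with a CHR, the nearest match lay within 50 bases of the start, before or after it. This distance was not counted for the windows of all genes, so it has no share to compare with. A match of these letters is a description and not a bound site.

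The last 150 bases before the start are printed for 6 genes, with the CHR and CCAAT on either strand in capitals (TTCAAA and ATTGG are the same motifs on the other strand). Cdk1, Ube2c, Cdc20, Kif11 and Top2a carry both motifs in this stretch, and Cdc25b, the gene with the highest difference, carries only a CCAAT box. They lie on GRCm38.p6 at chr10:69352913-69353062 (minus strand), chr2:164769779-164769928 (plus), chr4:118437344-118437493 (minus), chr19:37376232-37376381 (plus), chr11:99024190-99024339 (minus) and chr2:131186798-131186947 (plus), in the order printed.
Cdk1: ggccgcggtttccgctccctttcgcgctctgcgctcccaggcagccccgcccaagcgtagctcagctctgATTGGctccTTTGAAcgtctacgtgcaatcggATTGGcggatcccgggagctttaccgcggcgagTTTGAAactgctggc
Ube2c: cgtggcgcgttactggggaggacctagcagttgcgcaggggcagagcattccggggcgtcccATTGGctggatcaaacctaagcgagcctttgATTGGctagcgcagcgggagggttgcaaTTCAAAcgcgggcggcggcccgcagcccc
Cdc20: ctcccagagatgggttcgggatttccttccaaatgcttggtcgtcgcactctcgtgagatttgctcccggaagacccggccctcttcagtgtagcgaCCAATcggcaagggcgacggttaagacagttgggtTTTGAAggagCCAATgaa
Kif11: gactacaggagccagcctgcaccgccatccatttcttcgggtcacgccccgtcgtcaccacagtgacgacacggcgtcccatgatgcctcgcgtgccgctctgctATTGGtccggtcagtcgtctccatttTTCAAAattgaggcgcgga
Top2a: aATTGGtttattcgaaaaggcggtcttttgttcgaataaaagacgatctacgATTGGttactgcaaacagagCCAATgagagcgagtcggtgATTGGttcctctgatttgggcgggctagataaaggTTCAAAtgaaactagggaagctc
Cdc25b: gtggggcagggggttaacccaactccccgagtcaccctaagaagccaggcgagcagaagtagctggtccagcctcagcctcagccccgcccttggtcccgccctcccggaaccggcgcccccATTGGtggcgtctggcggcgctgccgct

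In Cdk1 the CHR starts 71 and 15 bases before the start of the gene, in Cdc20 18, in Kif11 19, in Top2a 23 and in Ube2c 29 bases before it. Other genes, among them Aurka, Plk1 and Hmmr, have their CHR after the start, outside a stretch of this kind. Hmmr, the other gene above 0 besides Cdc25b (0.005), carries both motifs in its window. The medians of genes with and without a motif were close. The median difference was -0.29 in the 28 genes with a CHR and -0.31 in the 9 without. With CCAAT it was -0.29 (29 genes), and without -0.37 (8 genes). Nuf2, Nusap1, Mad2l1, Plk4 and Birc5 had neither motif in their windows, and their differences were -0.31, -0.42, -0.30, -0.11 and -0.54.

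**Figure D2:**
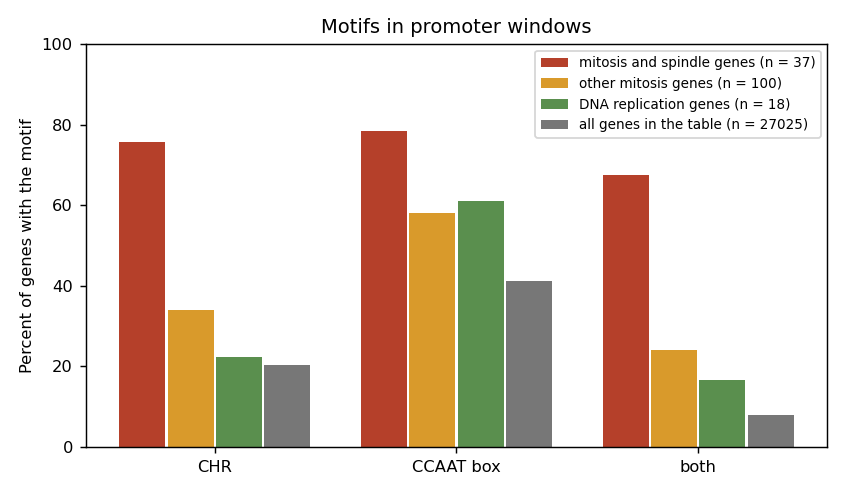
Percent of genes (vertical axis) with the CHR, with CCAAT, and with both in a promoter window of 300 bases, for the mitosis and spindle genes (37 with a window), other mitosis genes (100), DNA replication genes (18) and all genes of the table (27025). The CHR was found in 75.7%, 34.0%, 22.2% and 20.2%.

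Cyclins and the regulators of Cdk1 were lower, with Cdc25b as the exception. Cdk1, the kinase that drives entry into mitosis, had 1936 units in the library labelled Nr4a-deficient, against 3097 in the wild-type library (-0.46), and its other 2 probes gave -0.34 and -0.24. Its partners Ccnb1 (3200 against 4712 units, -0.34), Ccnb2 (9886 against 14789, -0.36) and Ccna2 (4817 against 6733, -0.27) encode cyclins B1, B2 and A2. Cdca3, which helps to degrade the Cdk1 inhibitor Wee1, stood at 6503 against 9926 units (-0.39). Close to background, where a difference between single spots of the arrays had an SD of 0.32 (the spot SD), lay Cdc25c. This phosphatase, which activates Cdk1, had 167 against 258 units (-0.41). Its relative Cdc25b had 17784 units in the library labelled Nr4a-deficient, against 18207 in the wild-type library, the smallest ratio of its role group, and its difference was 0.18 on the main scale and -0.18 on the spike-in scale.

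The chromosomal passenger complex had a median of -0.54 over its 3 genes, the lowest of the 10 role groups. With normexp background correction its median was -0.38 and that of the spindle proteins, -0.40, was lower. This complex corrects faulty attachments of chromosomes to the spindle and then guides the cleavage of the cell. Birc5, its survivin subunit, had 24312 units in the library labelled Nr4a-deficient, against 41061 in the wild-type library. All 3 probes of Birc5 lay between -0.55 and -0.54, although their signals covered a wide range (1284 to 24312 units in the library labelled Nr4a-deficient, against 2169 to 41061 in the wild-type library). Cdca8, the borealin subunit, had 8251 against 12307 units (-0.36, and -0.40 at its second probe). Aurkb, the kinase of the complex, had 130 against 239 units (-0.66), near background.

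Of the other mitotic kinases, Aurka, which matures the poles of the spindle, had 4076 units in the library labelled Nr4a-deficient, against 5703 in the wild-type library (-0.27). Plk1, which acts from entry into mitosis to cytokinesis, had 7661 against 10959 units (-0.30). Plk4, which starts the copying of centrioles, had 120 against 151 units (-0.11), less than the spot SD of 0.32 at that level. None of these 3 passed -0.32.

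The spindle checkpoint delays anaphase until all chromosomes are attached. Its gene Bub1 was the one member printed in 10 spots, so its spot error can be given. In the library labelled Nr4a-deficient the lowest spot had 943 units, the median 990 and the highest 1086. In the wild-type library they had 1634, 1698 and 1845. The spots of the arrays did not overlap, in these unscaled units or once scaled. On the scaled log2 axis the highest Nr4a-deficient spot lay at -0.70 and the lowest wild-type spot at -0.32. How often other probes printed in 10 spots separate like this was not counted. The separation therefore does not set Bub1 apart from other genes. The level was -0.82 ± 0.056 in the library labelled Nr4a-deficient, against -0.27 ± 0.051 in the wild-type library (SD over 10 spots of 1 array each), a difference of -0.55. Spots of 1 array share 1 RNA sample, so this SD leaves out differences between mice and sorts.

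The other checkpoint genes were lower as well. Bub1b, which encodes the checkpoint inhibitor BubR1, had 911 units in the library labelled Nr4a-deficient, against 1437 in the wild-type library (-0.44). Mad2l1, whose protein Mad2 holds back Cdc20, had 4147 against 5944 units (-0.30), and its dimmer probes gave -0.21 and -0.12. Bub3, which brings the Bub kinases to the kinetochore, had 10274 against 13489 units (-0.18). Ttk, the Mps1 kinase at the top of the pathway, had 68.6 units in the library labelled Nr4a-deficient, not well above background, and 111 in the wild-type library. The bound from these signals was at least 1.39-fold lower, which is the measured fold of Ttk, and with normexp background correction the fold was 1.16.

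Anaphase needs the anaphase-promoting complex, a ubiquitin ligase that marks cyclin B and securin for destruction. Cdc20, its activator, had 10278 units in the library labelled Nr4a-deficient, against 14509 in the wild-type library (-0.28). Ube2c, its ubiquitin-conjugating enzyme, had 3808 against 5915 units (-0.42, and -0.40 at its second probe). Espl1, the separase that cuts cohesin once securin is gone, had 927 against 1156 units (-0.10).

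At the centromere and kinetochore all 6 genes were below 0, with a median of -0.31. Cenpa, the histone H3 variant that marks centromeres, had 4608 units in the library labelled Nr4a-deficient, against 6320 in the wild-type library (-0.24). Cenpe, a kinesin of the kinetochore, had 7550 against 10796 units (-0.30). The 3 listed subunits of the Ndc80 complex, which grips microtubules, lay close together. Spc25 had 5208 against 7771 units (-0.36), Ndc80 had 817 against 1185 (-0.32), and Nuf2 had 722 against 1037 at its brightest probe (-0.31). Cenpf had 37.6 units in the library labelled Nr4a-deficient, not well above background, against 99.1 in the wild-type library. The bound from these signals was at least 1.67-fold lower, and with normexp background correction the fold was 1.28.

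Nuf2 had 2 further probes that did not follow its brightest one. The probe designed on the transcript ENSMUST00000111363 had 15.4 units in the library labelled Nr4a-deficient, not well above background, and 669 in the wild-type library, at least 11.3-fold lower. The other probe on the transcript of the brightest one (NM_023284) had 13.3 against 149 units, at least 2.52-fold lower. Besides these, only the probes of Cenpf and Ttk passed background on the wild-type array alone. On mm9, the build of the array design, these 3 probes lie on the minus strand at chr1:171428989-171429048 (the brightest), chr1:171440451-171440510 and chr1:171428269-171428328. The exon under each probe was not looked up. Their first 30 bases are printed in that order to show that the probes read separate stretches of the gene.
Nuf2 brightest probe: atctttgtaaacttgaaaagtgctctggag
Nuf2 probe on ENSMUST00000111363: gcactctctgaactacttagtgtctgtgca
Nuf2 second probe on NM_023284: ccctacatatctgattgctgttgtttaggt

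Kinesins, motors that slide and break down microtubules, were all below 0 at their brightest probes. Kif15, which helps to keep the spindle bipolar, had 436 units in the library labelled Nr4a-deficient, against 713 in the wild-type library (-0.49). Kif11, the main motor of bipolar spindles, had 733 against 1041 units (-0.29). Kif2c, which takes microtubules apart at centromeres, had 241 against 373 units (-0.42, and -0.47 at its second probe). Kif20a, a motor of cytokinesis, had 2807 against 4246 units (-0.38). Kif4, a motor of the central spindle and of chromosome arms, had 543 against 753 units (-0.26). Kif22, which pushes chromosomes towards the middle of the spindle, was closest to 0, with 9183 against 11770 units (-0.14).

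Spindle proteins split into a lower set and a pair closer to 0. Tpx2, which activates Aurora A on the spindle, had 1900 units in the library labelled Nr4a-deficient, against 2984 in the wild-type library (-0.44). Nusap1, which bundles spindle microtubules, had 2197 against 3420 units (-0.42). Stmn1, which encodes stathmin, a protein that binds free tubulin, had 20632 against 31671 units, and its 2 probes lay at -0.402 and -0.405. Prc1, which crosslinks microtubules of the central spindle, had 4971 against 6473 units (-0.16). Hmmr, a spindle and hyaluronan-binding protein, had 3124 against 3616 units, and its difference was 0.005 on the main scale and -0.36 on the spike-in scale.

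Cytokinesis and chromosome proteins closed the list. Ect2, the exchange factor that starts the contractile ring, had 1003 units in the library labelled Nr4a-deficient, against 1565 in the wild-type library (-0.43). Its second probe, designed on the clone AK040174, had 213 against 198 units (0.32). Racgap1, the centralspindlin subunit that binds Ect2, had 5302 against 6983 units (-0.18), and Kif23, the motor of that complex, 1312 against 1858 (-0.29). A dim second probe of Kif23, on ENSMUST00000055275, lay at 0.12. Mki67, the usual marker of dividing cells, had 31596 against 39664 units (-0.11, and -0.03 at its second probe). Top2a, which untangles sister chromatids, had 4184 against 5745 units (-0.24).

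Where a gene had several probes, most had the same sign, and the size varied in some genes. Both arrays detected more than 1 probe for 13 members, and 11 of these had every such probe below 0, and the exceptions were Ect2 and Kif23. The median gap between the lowest and the highest probe of these 13 genes was 0.08. It was under 0.15 in 7 of them and 0.18 to 0.74 in the other 6. Nuf2, with 1 probe detected on both arrays, is not among the 13. Of 58 member probes above background on both arrays, 54 were below 0. In 33 of the 43 genes, and in 20.6% of all detected genes, the difference at the brightest probe was below 0 by more than 2 times the SD between spots at that level (0.072 to 0.32). That SD holds the noise within arrays and not the spread between libraries.

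**Figure D3:**
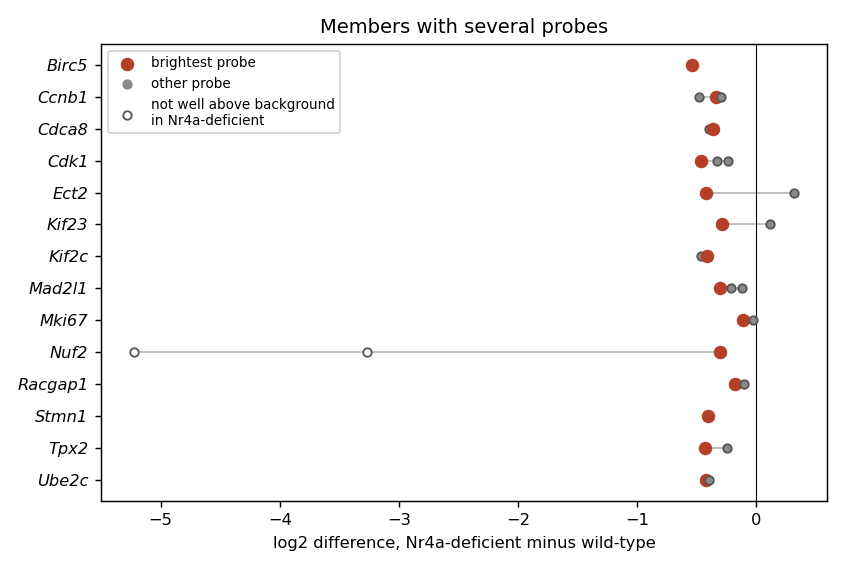
log2 difference between the libraries (horizontal axis, Nr4a-deficient minus wild-type) for each probe of the 14 members with several probes. Large red points are the brightest probes, grey points the others, and open points the 2 Nuf2 probes not well above background in the library labelled Nr4a-deficient. All brightest probes lie between -0.54 and -0.11.

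The medians of the mitosis genes lay below those of all detected genes at dim and at bright levels. Over all detected genes the median difference was 0.21 at levels under -3, -0.02 at levels from -1 to 1 and -0.05 at levels over 3. At these levels the medians of the mitosis genes were -0.48 (5 genes), -0.42 (11 genes) and -0.26 (4 genes). The median of the 5 dim genes is the measured value of Ttk. Ttk and Cenpf, both among these 5, passed background on the wild-type array alone, and the spot SD at that level was 0.32. The dim median is therefore weak. With cyclic loess, which removes such a trend, the median of all 43 mitosis genes was -0.32.

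**Figure D4:**
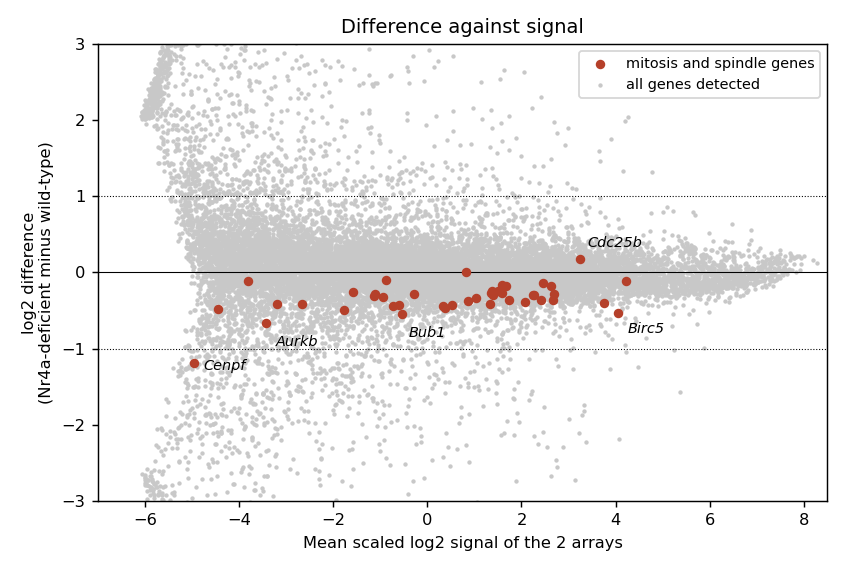
log2 difference (vertical axis, library labelled Nr4a-deficient minus wild-type) against the mean scaled log2 signal of the arrays, for all 18556 detected genes (grey) and the 43 mitosis and spindle genes (red). Dotted lines mark 2-fold. Genes beyond the vertical axis range are not drawn. The red points form a band below 0 across the signal range, with Cdc25b above it at 0.18.

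Other genes of mitosis, listed by role, were lower to a smaller extent. The list was drawn up with earlier results of these data known. Of 125 detected, 98 (78.4%) were below 0, 35 (28.0%) past -0.32 and 3 (2.4%) past 0.32, with a median of -0.18. The shares over all detected genes were 49.4%, 15.5% and 17.0%. The median was -0.37 for partners of the passenger complex and cytokinesis genes (8 genes), -0.28 for centromere genes (34) and -0.22 for Cdk1 regulators (8). It was -0.15 for condensin and cohesin genes (19), -0.15 for spindle and centrosome genes (41) and -0.10 for subunits and regulators of the anaphase-promoting complex (15). The lowest was Smc4, a core subunit of condensin, with 25424 units in the library labelled Nr4a-deficient, against 69807 in the wild-type library, 2.36-fold lower and the only one past 2-fold. Psrc1, which acts on spindle microtubules, was next (-0.78), followed by Cenpp of the centromere (-0.75) and Tacc2 of the centrosome (-0.71). The highest was Nek6, a kinase of spindle assembly, with 589 against 205 units, 3.34-fold higher, and 1.54 at its second probe. Haus2 (0.61), Tacc1 (0.44) and Troap (0.27) followed, and on the spike-in scale Troap lay at -0.10.

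DNA replication genes were also lower. Of 23 detected, 19 (82.6%) were below 0, 8 (34.8%) past -0.32 and 1 (4.35%) past 0.32, with a median of -0.26. Over all detected genes these shares were 49.4%, 15.5% and 17.0%. Tk1, thymidine kinase, had 4866 units in the library labelled Nr4a-deficient, against 9284 in the wild-type library (-0.72). Gins2 (-0.66) and Gins4 (-0.53) of the replicative helicase and Pcna (-0.41), the sliding clamp of DNA polymerase, followed. Tyms, thymidylate synthase, had 523 against 434 units (0.49), and Mcm6 (0.16), Cdt1 (0.10) and Rrm2 (0.002) also lay above 0. These last 3 lay below 0 on the spike-in scale, at -0.21, -0.27 and -0.36.

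The regulators of mitotic transcription differed less. Of 16 detected, 13 (81.25%) were below 0, against 49.4% of all detected genes, with a median of -0.13. Past -0.32 were 3 (E2f3, E2f7 and Tfdp2), or 18.75%, close to the 15.5% of all detected genes. Foxm1, the activator of mitotic promoters, had 896 units in the library labelled Nr4a-deficient, against 1040 in the wild-type library, and its levels were -0.98 on both arrays. Mybl2 had 4308 against 5706 units (-0.19), and its second probe gave -1.03. The MuvB genes Lin9 (-0.15), Lin37 (-0.03), Lin52 (0.13) and Lin54 (-0.13) and the pocket protein genes Rbl1 (0.13) and Rbl2 (-0.13) lay near 0 at their brightest probes. Other probes gave 0.36 for Lin9, -0.10 for Lin52 and -0.06 for Rbl1. The repressors E2f7 (-0.38) and E2f8 (-0.30) were lower at their brightest probes, and the second probe of E2f7 gave 0.19. The activator E2f3 lay at -0.42, E2f1 at -0.05 and E2f2 at -0.08.

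**Figure D5:**
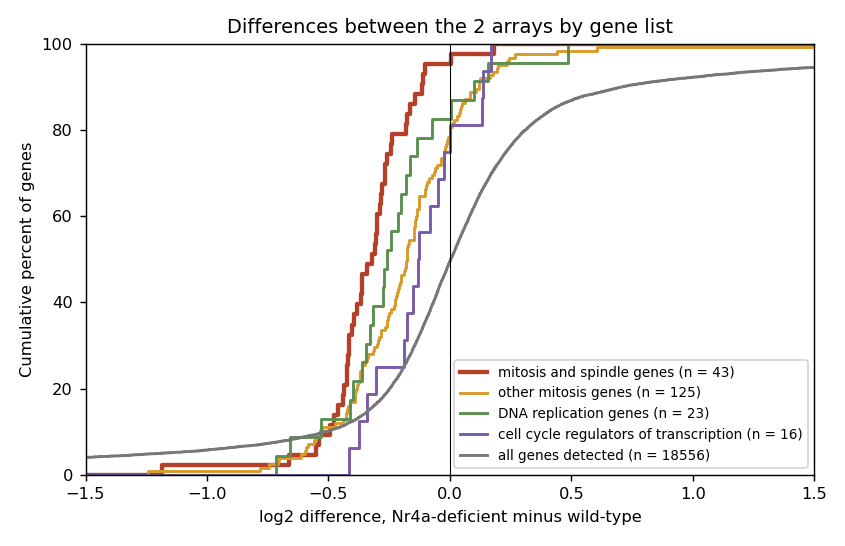
Cumulative percent of genes (vertical axis) by log2 difference (horizontal axis, library labelled Nr4a-deficient minus wild-type) for the mitosis and spindle genes (43), other mitosis genes (125), DNA replication genes (23), regulators of transcription in the cell cycle (16) and all detected genes (18556). At 0 the curves have reached 95.3% for the mitosis and spindle genes and 49.4% for all detected genes, with the other lists between them.

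The libraries also differed in markers of other cell types. Summed levels are given as multiples of the 75th percentile of the array. Of 9 red cell and platelet markers, 5 were detected and 4 were at least 2-fold lower, with a summed level of 10.9 in the library labelled Nr4a-deficient, against 38.9 in the wild-type library. The platelet genes Ppbp, Pf4, Itga2b and Gp9 were not above background on either array. Of 9 myeloid markers, all detected, 4 were 2-fold lower or more and 3 were higher by that much (summed level 45.0 and 60.2). Of 5 thymocyte markers, 3 were detected and 1, Rag1, was at least 2-fold lower (3.77 and 6.62), while Rag2 and Ptcra were not above background on either array. Of 11 B cell markers, 9 were detected and 2 were at least 2-fold higher (19.9 and 8.99), with Pax5 and Blk not above background. Of 7 plasmacytoid dendritic cell markers, 5 were at least 2-fold higher (106 and 80.5), with a median difference of 2.92. Siglech, the brightest of them, had 136839 against 147869 units at its brightest probe (0.10). Its other probe well above background on both arrays gave 6.63, so its probes disagree. Cox6a2 had 8217 against 83.8 units (6.83). Of 9 NK and CD8 T cell markers, 8 were detected and 2 were at least 2-fold higher (3.50 and 2.55), with Ncr1 not above background. Of 5 plasma cell markers, 4 were detected and 1 was at least 2-fold higher (14.5 and 11.8), with Sdc1 not above background. The 7 Treg markers summed to 132 and 153, and 1, Il2ra, was at least 2-fold lower (16618 against 46649 units). Tnfrsf18 was 1.82-fold lower, and the other 5 lay between -0.18 and 0.18. The part of these cells in the lower level of the mitosis genes was not tested.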

How the data were processed

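Total RNA of sorted Treg cells was measured on 1 single-colour array a group. Per the file headers, the authors read the images with version 10.7.3.1 of Agilent Feature Extraction, with spatial and multiplicative detrending within each array, the separate background correction off, and surrogate values allowed for dim spots. The deposited scanner files and the deposited value table hold intensity values on a linear scale, with no scaling between arrays recorded. The value table (column median 144 for Nr4a-deficient, against 157 for wild-type) was within 1% of the scanner's processed signal for 99.6% of gene probes on both arrays. Per the labels' protocols, RNA was amplified with a low-input kit before hybridisation.

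Computed here (Python 3.11.15, pandas 2.3.3, R 4.3.3 with limma 3.58.1 for normexp, quantile and cyclic loess): spots flagged as outliers were left out (173 and 209 gene spots, none of a member), log2 processed signals were averaged over spots of a probe, and the 75th percentile of gene probes was subtracted. Where a probe passed background on a single array, the fold is a bound: the dim side was set to its own signal or to the lowest scaled signal well above background, whichever was higher. Gene names are those of the array. Symbols of the comparison lists missing there were matched through RefSeq synonyms. The steps were tested on simulated data. The genes and lists were chosen with earlier results of these data known. Named outside the members were the 4 highest and 4 lowest genes of the other mitosis and replication lists, the regulators, the Nr4a genes and cell markers. The number of arrays limits the precision.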

Additional observations from a re-analysis of the deposited data

How the results depend on the processing

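Across 10 alternatives of scale, background correction, source, filter and probe summary, the median of the mitosis and spindle genes stayed below 0, from -0.68 to -0.28, and 39 (of 41) to 43 (of 43) were below 0, against 48.1% to 81.4% of all genes. With the median of gene probes as the scale, their median was -0.42, 34 passed -0.32, against 21.9% of all genes, and the medians of other mitosis, regulator and replication genes were -0.28, -0.23 and -0.36. That scale put the median of all detected genes at -0.09. On the spike-in scale the median was -0.68, 42 passed -0.32, against 55.0% of all genes, 2 were at least 2-fold lower (Aurkb and Cenpf), and the medians of the other lists were -0.54, -0.49 and -0.62. Without a filter on dim probes 1 gene (Cenpf) was at least 2-fold lower, as was 1 (Nuf2) with the mean over probes. The median lay below that of all genes by 0.21 to 0.33 throughout. Of 428 values of single members, 344 moved by less than the spot SD, 84 by more, and no value past 0.32 in size changed sign. Many of these values could hardly move. The value table, the filters on dim probes and the keeping of outlier spots left the signals and brightest probes of the members almost unchanged. The median and spike-in scales lowered every member by the same amount, so they could not turn a negative value positive. The single array of each group leaves the spread between mice unknown, and genes near background (Cenpf, Ttk, Aurkb, Plk4, Cdc25c) are limited by signal: with normexp, Cenpf lay at -0.36 and Ttk at -0.21, closer to 0 than their bounds. No paired analysis was possible because each group had 1 library.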
